A study of Mus musculus with 4 samples.

Results

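Retnla-high cells of the mouse colon are described here: cells in which Retnla supplied at least 1000 of every 1000000 unique molecular identifiers (UMIs, each standing for 1 captured mRNA molecule), written below as 1000 CPM (counts per 1000000). They numbered 208 of the 12676 cells that had at least 200 detected genes, at most 10% mitochondrial UMIs and at least 3000 UMIs, and of the 17905 deposited barcodes. Retnla itself chose these cells, so its level is a description and not a finding.

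The study sequenced cells of untreated mice, enriched by CD11b positive selection, by droplet single-cell RNA-seq. It made 4 libraries, 1 for each combination of genotype and colon tissue. Other cells, endothelial cells among them, remained in the libraries. The tissues were the solitary isolated lymphoid tissues (SILT), small lymphoid clusters in the gut wall, and the surrounding lamina propria, the connective tissue below the epithelium. The Csf2-/- mice lack the cytokine CSF2, also called GM-CSF, and the Csf2+/+ mice are called wild type (WT) below. Mice of both genotypes carried 1 CX3CR1-GFP and 1 CCR2-RFP reporter allele, which as background are insertions into the Cx3cr1 and Ccr2 genes, so the levels of those genes come from altered loci. The design text names 5 mice and does not say whether their cells were pooled, and ages and sexes are not used here. With 1 library per group no difference between groups or between sets of cells could be tested, and all intervals below cover counting error only, at 95% confidence.

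Retnla encodes resistin-like molecule alpha (RELMα), a small secreted protein that mouse macrophages make in large amounts when interleukin-4 or interleukin-13 acts on them through the transcription factor STAT6. Gut macrophages arise largely from blood monocytes that need the receptor CCR2 to enter tissue, then lose CCR2 and gain CX3CR1 and complement C1q genes. A longer-lived set along vessels and nerves carries LYVE1, FOLR2 and CD163. CSF2 acts through a receptor of the subunits CSF2RA and CSF2RB and is made in the gut mainly by lymphoid cells, while survival of most tissue macrophages rests on CSF1 and its receptor CSF1R.

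Sequences upstream of Retnla and Ear2 are shown because both genes are markers by which these cells were named and both have a RefSeq promoter entry (build GRCm38.p6, 250 bases before to 50 after the start, plus strand). The windows are chr16:48842359-48842658 for Retnla and chr14:44102404-44102703 for Ear2. Capitals mark matches to 3 motifs searched on both strands. The TATA box was searched as TATAAA. The STAT6-type motif was TTC, followed after 4 bases of any kind by GAA. The C/EBP-type motif was TTGCNNAA.
Retnla: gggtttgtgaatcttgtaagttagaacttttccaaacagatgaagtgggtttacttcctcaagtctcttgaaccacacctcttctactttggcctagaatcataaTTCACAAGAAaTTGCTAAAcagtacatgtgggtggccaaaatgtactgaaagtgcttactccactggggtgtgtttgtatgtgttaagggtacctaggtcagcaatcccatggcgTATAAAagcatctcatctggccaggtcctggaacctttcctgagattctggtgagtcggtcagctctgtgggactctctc
Ear2: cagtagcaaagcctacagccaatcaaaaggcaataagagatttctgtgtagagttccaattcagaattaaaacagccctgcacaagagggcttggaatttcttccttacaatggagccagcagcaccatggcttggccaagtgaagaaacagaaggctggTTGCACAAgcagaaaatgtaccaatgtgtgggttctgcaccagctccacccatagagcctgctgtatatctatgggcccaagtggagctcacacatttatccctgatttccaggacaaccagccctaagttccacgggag
The Retnla window held 1 match to each of the 3 motifs, at -30 for TATAAA, -145 for the STAT6-type motif and -134 for TTGCNNAA relative to the RefSeq start. The STAT6-type and C/EBP-type matches were neighbours without overlap, 1 base apart. The Ear2 window held 1 match, to TTGCNNAA at -90. Among 32851 promoter windows of the same length, 13.6% held TATAAA, 6.95% held the STAT6-type motif and 10.8% held TTGCNNAA. A match is a stretch of letters and does not show binding.

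The libraries held between 19225644 UMIs (Csf2-/- lamina propria) and 67656927 UMIs (WT SILT). Retnla-high cells had a median of 4662 UMIs in Csf2-/- SILT against 11872 in WT SILT, and of 6994 in Csf2-/- lamina propria against 14575 in WT lamina propria. All passing cells had medians of 9124, 8136, 9940 and 11703 UMIs in those 4 libraries in the same order. Pairs of libraries shared between 3 and 19 barcodes, and no Retnla-high cell had a barcode that was also Retnla-high elsewhere. The median UMI count of Retnla-high cells was therefore lower in both Csf2-/- libraries than in the WT libraries, and its part in the results below was not tested.

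Most other cells held no Retnla UMI at all (92.9% in WT SILT and 81.6% in WT lamina propria), and the Retnla-high cells held nearly all of this RNA. Retnla ranged from 1502 to 20163 CPM with a median of 3409 in the Csf2-/- SILT members, against 1021 to 72752 CPM with a median of 8883 in the WT SILT members. In the lamina propria it ranged from 1518 to 29389 CPM with a median of 4238 in the Csf2-/- members, against 1055 to 53103 CPM with a median of 9976 in the WT members. The ranges overlapped between genotypes in both tissues. The members together held 88.6% of all Retnla UMIs of passing cells in Csf2-/- SILT against 96.8% in WT SILT, and 91.9% in Csf2-/- lamina propria against 96.6% in WT lamina propria. Few cells lay near the threshold: 1, 4, 4 and 6 cells of Csf2-/- SILT, WT SILT, Csf2-/- lamina propria and WT lamina propria held between 500 and 1000 CPM. The members just inside it had 1021 CPM in WT SILT and 1055 CPM in WT lamina propria, and the cells just outside it 761 and 969 CPM.

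Free RNA in the droplets set a low floor for Retnla. In endothelial cells, which should lack the gene, 2.18% of WT SILT and 3.24% of WT lamina propria cells held a Retnla UMI once every cell was thinned to 3000 UMIs (5.28% and 14.0% before thinning). The C1q macrophages outside the Retnla-high set stood at 2.75% in WT SILT, near that floor, and at 7.14% in WT lamina propria, above it. Their summed Retnla level was 8.77 CPM in WT SILT and 27.7 CPM in WT lamina propria.

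The Retnla-high cells were myeloid cells, but only part of them had the genes of their working name, Retnla-high Lpl Fn1 macrophages. The general myeloid genes Fcer1g and Tyrobp together reached 1000 CPM in 172 of the 188 WT members, and the C1q genes together reached 2000 CPM in 122 of them. Lpl (lipoprotein lipase, which frees fatty acids from lipoproteins) was detected after thinning in 68.1% of WT SILT members and 59.7% of WT lamina propria members. Fn1 (fibronectin, an adhesive matrix protein) was detected in 73.9% of WT SILT members and 65.5% of WT lamina propria members. Ear2, an eosinophil-associated ribonuclease, was detected in 43.5% of WT SILT members and 33.6% of WT lamina propria members. Among endothelial cells these shares were 3.0% in WT SILT and 4.90% in WT lamina propria for Lpl, and 10.7% and 14.0% for Fn1. For Ear2 no endothelial cell of WT SILT and 0.0791% of those of WT lamina propria held a UMI. Whether endothelial cells make Fn1 themselves was not tested, so their Fn1 shares may not be free RNA alone. Without thinning, 76.8% of WT SILT members and 71.4% of WT lamina propria members held an Lpl UMI, against 9.26% and 16.1% of endothelial cells. From cell to cell Fn1 ran from 0 to 11721 CPM in WT SILT members with a median of 2386, and from 0 to 18352 CPM in WT lamina propria members with a median of 1470. Lpl ran from 0 to 12871 CPM with a median of 484 in WT SILT members, and from 0 to 12431 CPM with a median of 298 in WT lamina propria members. All 3 genes were found together in 26 of 69 WT SILT members and 33 of 119 WT lamina propria members, while 14 and 33 members had none of the 3 after thinning. Among the other C1q macrophages all 3 were found together in 2 of 1453 WT SILT and 6 of 1232 WT lamina propria cells.

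Markers of other cell types that make resistin-like or ribonuclease proteins were at or near 0. Of 9 eosinophil genes, Epx, Ear1 and Ear6 had no UMI in the members of any library, and the list summed to 10.5 CPM in WT SILT members and 6.73 CPM in WT lamina propria members. A list of 8 mast cell and basophil genes summed to 0 and 1.92 CPM in those members. The mesothelial markers Msln and Upk3b were at 0, and Arg1 and Chil3, which accompany Retnla in many alternatively activated macrophages, had 1 UMI each in the WT SILT members and 1 UMI each in the WT lamina propria members. No member of any library held a Csf2 UMI. Genes of the plasma cell list did reach 3672 CPM in WT SILT members and 2234 CPM in WT lamina propria members over 6 genes, and endothelial genes 1175 and 347 CPM over 9 genes. Their part in the results was not tested.

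Set against the other C1q macrophages of the same library, the WT Retnla-high cells were highest for Cd226, Fn1, Aldh1a2, Lpl and Ear2, and their lower genes included Ms4a7, Il1b and Vcam1. Of 3212 genes measured in WT SILT, 166 (5.17%) were at least 2-fold higher in the Retnla-high cells and 190 (5.92%) at least 2-fold lower. In WT lamina propria 147 of 3540 genes (4.15%) passed this mark upward and 149 (4.21%) downward. Both WT libraries showed 107 of 2936 shared genes (3.64%) higher and 96 (3.27%) lower. The other C1q macrophages had C1qa, C1qb and C1qc together at 2000 CPM or more and Retnla under 1000 CPM. They numbered 1453 cells in WT SILT and 1232 in WT lamina propria. The C1q genes themselves are therefore no result here. Members did not have to reach that C1q level, and 122 of the 188 WT members did. The part of this gate in the lower genes was not tested.

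Fn1, Lpl, Mmp19, Adam8 and Ndnf code for proteins that are secreted or sit at the cell surface. Fn1 stood at 2513 CPM in the Retnla-high cells against 53.4 CPM in the other C1q macrophages of WT SILT, and at 4024 against 66.1 CPM in WT lamina propria, which is 47.1-fold (43.7 to 50.8) and 60.9-fold (57.2 to 64.8). Lpl stood at 1190 CPM against 35.5 CPM in WT SILT and at 1927 against 76.4 CPM in WT lamina propria, 33.5-fold (30.4 to 37.0) and 25.2-fold (23.7 to 26.9). The matrix metalloprotease gene Mmp19 stood at 112 against 11.4 CPM in WT SILT and 227 against 20.1 CPM in WT lamina propria. Adam8, a cell surface metalloprotease, followed at 56.4 against 7.62 CPM and at 101 against 13.9 CPM. The secreted neurotrophic factor gene Ndnf reached 63.1 CPM against 1.79 CPM in WT SILT and 87.5 CPM against 5.94 CPM in WT lamina propria. Each of these 5 genes was more than 7-fold higher in both WT libraries, but the lists they belong to did not move as a whole. Of 14 measured matrix genes 3 were at least 2-fold higher and 2 lower in WT SILT, and 2 higher and 2 lower in WT lamina propria. Of the lipid uptake and storage genes it was 2 higher and 1 lower of 10 in WT SILT, and 1 each way of 9 in WT lamina propria. Of the matrix proteases and their inhibitors it was 3 higher and 3 lower of 9 in WT SILT, and 3 higher of 5 in WT lamina propria.

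By the rule that ranked the named genes, Cd226 stood above Fn1, and Aldh1a2 above Lpl. Aldh1a2, the enzyme that makes retinoic acid from retinal, stood at 94.7 CPM in the Retnla-high cells against 1.04 CPM in the other C1q macrophages of WT SILT, and at 94.3 CPM against 2.33 CPM in WT lamina propria. Its 99 and 196 UMIs came from 38 of 69 WT SILT members and 59 of 119 WT lamina propria members, so no single cell carried it. Cd226, an adhesion receptor known from T and NK cells and from the monocyte-derived macrophages of mouse body cavities, stood at 141 against 1.27 CPM in WT SILT and at 182 against 3.26 CPM in WT lamina propria. Cd2, another adhesion receptor of lymphocytes, stood at 103 against 12.8 CPM and at 138 against 6.76 CPM. Ltb4r1, the receptor for leukotriene B4, stood at 109 against 15.2 CPM in WT SILT and at 96.7 against 13.3 CPM in WT lamina propria. Ear2 was 25.3-fold higher (21.4 to 29.9) in WT SILT, at 346 against 13.7 CPM, and 24-fold (20.5 to 28.3) in WT lamina propria, at 291 against 12.1 CPM. Ear2 has close paralogs, and reads that several copies share may be split between them.

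The other genes named by the same rule were Rras2 (a small GTPase), Ifitm6 (an interferon-induced transmembrane protein of myeloid cells), Hopx (a transcriptional cofactor), Chn2 (a GTPase-activating protein) and Lilra6 (a leukocyte immunoglobulin-like receptor). They ran from 8.51-fold higher for Chn2 in WT lamina propria to 22.7-fold for Rras2 in WT lamina propria. Their levels in the Retnla-high cells lay between 52.6 CPM for Rras2 in WT SILT and 192 CPM for Ifitm6 in WT SILT.

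**Figure D1:**
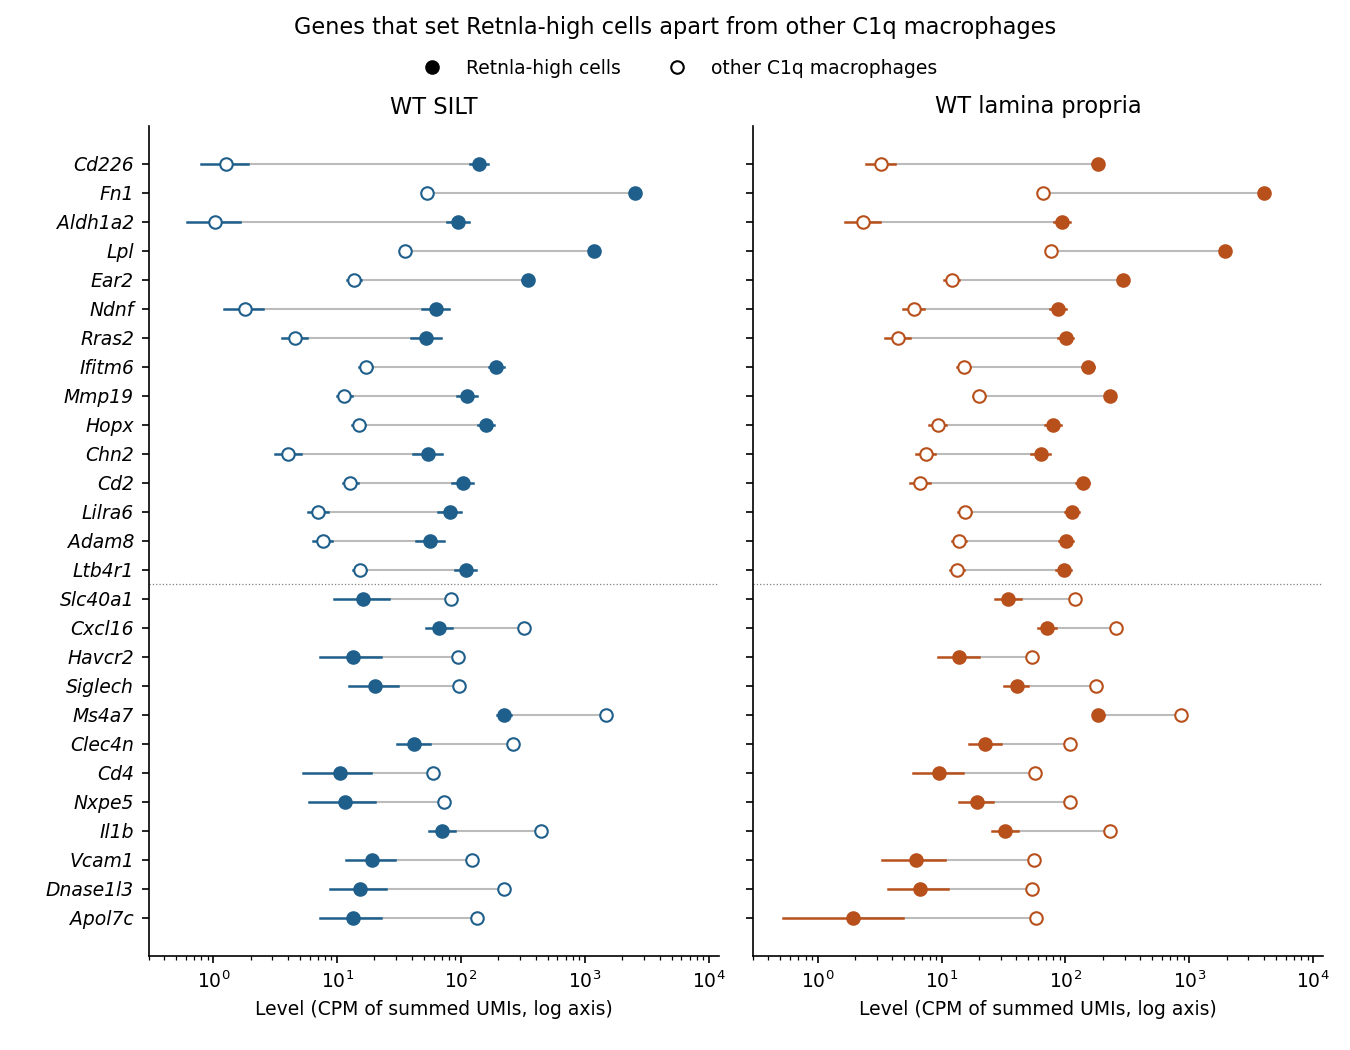
Levels of 27 genes (CPM of summed UMIs, log axis) in Retnla-high cells (filled circles) and other C1q macrophages (open circles) of WT SILT and WT lamina propria, with 95% counting intervals. The 15 genes above the dotted line were higher in the Retnla-high cells of both libraries, with Fn1 at 2513 and 4024 CPM, and the 12 genes below it were lower in both.

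The 12 named genes that were lower coded for proteins of several kinds. Ms4a7, a tetraspan membrane protein of resident macrophages, stood at 223 CPM in the Retnla-high cells against 1466 CPM in the other C1q macrophages of WT SILT, and at 184 against 850 CPM in WT lamina propria. Il1b, the inflammatory cytokine, stood at 70.8 against 445 CPM in WT SILT and at 32.7 against 230 CPM in WT lamina propria. The chemokine gene Cxcl16, the adhesion molecule Vcam1, the lectin Clec4n, the co-receptor Cd4 and the iron exporter Slc40a1 were among the 12 named genes, from 0.112-fold (Vcam1, WT lamina propria) to 0.288-fold (Slc40a1, WT lamina propria). The remaining 5 were Apol7c, Dnase1l3 (a secreted DNase), Nxpe5, Siglech and Havcr2 (the receptor TIM-3). Some of these depended on which C1q macrophages were used: against the LYVE1-low ones alone, Siglech in WT lamina propria was higher in the Retnla-high cells (log2 ratio 0.24), and Slc40a1 there differed little (log2 ratio -0.07).

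The alpha chain gene of the CSF2 receptor was higher past the 2-fold mark in WT lamina propria, and the receptor gene of CSF1 did not reach that mark in either library. Csf2ra stood at 166 CPM in the Retnla-high cells against 95.9 CPM in the other C1q macrophages of WT SILT, and at 305 against 114 CPM in WT lamina propria. Csf2rb stood at 89.9 against 91.6 CPM in WT SILT and at 133 against 113 CPM in WT lamina propria, so the shared chain did not differ by 2-fold, and reads shared with its paralog Csf2rb2 may be split. Csf1r stood at 463 against 905 CPM in WT SILT and at 854 against 1622 CPM in WT lamina propria. Of the 10 measured genes in a list of CSF2 receptor and response genes, 4 were at least 2-fold higher in WT SILT and 5 in WT lamina propria: the transcription factors Irf4, Bhlhe40, Id2 and Batf3, and Csf2ra in the lamina propria. Cd9 of that list was at least 2-fold lower in WT SILT. The list median was a log2 ratio of 0.78 in WT SILT and 1.05 in WT lamina propria, against 0.08 and -0.01 over all genes measured.

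A list named for the CSF1 receptor axis ran the other way. It holds transcription factors and TGF-beta receptor chains besides Csf1r, so it does not measure CSF1 signalling as such. Of its 11 measured genes 4 were at least 2-fold lower in each WT library and none higher, with list medians of -0.90 and -0.91 in log2. Irf8 and Runx3 (transcription factors) and Tgfbr1 (a TGF-beta receptor chain) were among the lower genes of both, and Tgfbr2 was among those of WT lamina propria.

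Ccr2 and Cx3cr1, whose loci carry the reporters, also ran in opposite directions. Ccr2 stood at 529 CPM in the Retnla-high cells against 130 CPM in the other C1q macrophages of WT SILT, and at 627 against 192 CPM in WT lamina propria. Cx3cr1 stood at 83.2 against 354 CPM in WT SILT and at 158 against 432 CPM in WT lamina propria. Of the chemokine receptors measured, Cxcr4 was, like Cx3cr1, at least 2-fold lower in both libraries.

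Macrophage identity genes were lower or level, and none was 2-fold higher. Of the measured core macrophage genes 5 of 12 were at least 2-fold lower in WT SILT (Adgre1, Fcgr1, Apoe and Aif1 among them) and 3 of 13 in WT lamina propria (Fcgr1, Apoe and Aif1). Apoe, the lipoprotein that carries cholesterol out of macrophages, stood at 3618 CPM in the Retnla-high cells against 15565 CPM in WT SILT, and at 3632 against 11719 CPM in WT lamina propria. Fcgr1, the high-affinity IgG receptor CD64, stood at 33.5 against 110 CPM and at 35.1 against 112 CPM. Adgre1, which encodes F4/80, stood at 137 against 297 CPM in WT SILT and at 261 against 466 CPM in WT lamina propria. These sums mix kinds of member described below. Of 16 core genes 10 were at least 2-fold lower in Fn1-high than in LYVE1-high members of both libraries. Between LYVE1-high members and the other C1q macrophages high for Lyve1, Folr2 and Cd163, none of 13 passed 2-fold in both.

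Among secreted signals Ccl6 and Ccl9 were higher in both WT libraries and Ccl3, Ccl4 and Ccl8 lower. Ccl6, a CC chemokine of mouse myeloid cells, stood at 2216 CPM in the Retnla-high cells against 309 CPM in WT SILT and at 2151 against 360 CPM in WT lamina propria. It was detected after thinning in 97.1% of WT SILT members and 96.6% of WT lamina propria members, against 2.72% and 2.69% of endothelial cells. Ccl8 stood at 46.9 against 202 CPM in WT SILT and at 33.7 against 115 CPM in WT lamina propria. The CXC chemokines Cxcl16 and Pf4 were lower in both.

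Some alternative activation genes besides Retnla were higher. Of the measured genes of that list 3 of 7 were at least 2-fold higher in WT SILT (Ccl24, Irf4 and Egr2) and 2 of 8 in WT lamina propria (Irf4 and Egr2), while Cd209a was lower in the lamina propria. The list median was a log2 ratio of 0.82 in WT SILT and 0.32 in WT lamina propria. Mgl2, a galactose-binding lectin often used with Retnla as a mark of alternative activation, stood at 513 against 290 CPM in WT SILT and at 572 against 381 CPM in WT lamina propria. Mrc1, the mannose receptor CD206, stood at 856 against 1364 CPM in WT SILT and at 1436 against 2564 CPM in WT lamina propria. The kinds of member described below differed in this list. Of 7 genes measured between them, Egr2 was at least 2-fold higher in Fn1-high than in LYVE1-high members of both libraries. Mrc1, Clec10a and Ccl24 were at least 2-fold lower there. The list medians were -0.80 in WT SILT and -1.46 in WT lamina propria in log2.

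Genes known from the body cavities were present only in part. Of 9 measured genes of the small cavity macrophage list 4 were at least 2-fold higher in each WT library (Cd226, Irf4, Ccr2 and Lyz1), and Folr2 was lower in WT SILT. Lyz1, a lysozyme gene with the near-identical copy Lyz2, stood at 2447 CPM in the Retnla-high cells against 380 CPM in WT SILT, and at 2600 against 86.5 CPM in WT lamina propria. Lyz2 stood at 8142 against 10030 CPM and at 9282 against 7727 CPM, so the 2 copies did not move together. Gata6, the factor that defines large cavity macrophages, had 1 UMI in the members of each WT library.

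Against monocytes, the Retnla-high cells were higher for the measured long-lived gut macrophage genes and lower for the alarmin genes S100a8 and S100a9 and for Irf7. Of 2994 genes measured in both WT libraries, 249 (8.32%) were at least 2-fold higher in the Retnla-high cells of both and 157 (5.24%) at least 2-fold lower. In the single libraries 11.8% of genes were higher and 6.63% lower in WT SILT, and 10.7% higher and 9.54% lower in WT lamina propria. TMM scaling (trimmed mean of M values) lowered these log2 ratios by 0.134 in WT SILT and by 0.112 in WT lamina propria. All 11 measured genes of the long-lived gut macrophage list were higher in WT SILT and all 13 in WT lamina propria. These sums mix 2 kinds of member described below, and the genes of that list measured between the kinds were lower in the Fn1-high kind for 10 of 10. Fcrls stood at 473 CPM in the Retnla-high cells against 2.85 CPM in monocytes of WT SILT and at 610 against 3.80 CPM in WT lamina propria. The ficolin gene Fcna stood at 243 against 2.85 CPM and at 376 against 7.60 CPM. The alarmin genes S100a9 and S100a8 were lower, with S100a9 at 0.956 against 197 CPM in WT SILT and 2.40 against 1122 CPM in WT lamina propria. Fn1 was also a monocyte gene here, at 286 CPM in monocytes of WT SILT and 942 CPM in monocytes of WT lamina propria, below the 2513 and 4024 CPM of the Retnla-high cells. Of 11 interferon response genes only 4 were measured in WT SILT and 6 in WT lamina propria, and these were lower in the Retnla-high cells. Irf7 was among them, at 2.87 against 94.2 CPM and 6.73 against 112 CPM. A gene low in 1 set is measured only through the other set. The direction of the counts for this list and the long-lived list was thus largely set by the filter.

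Against type 2 dendritic cells, which present antigen to helper T cells, the Retnla-high cells were higher for 281 of 2931 genes (9.59%) and lower for 117 (3.99%) in both WT libraries. In the single libraries 11.9% of genes were higher and 5.06% lower in WT SILT, and 11.4% higher and 6.79% lower in WT lamina propria. Lysosomal enzymes were higher for 12 of 18 measured genes in each library and lower for none. The coagulation factor gene F13a1 stood at 670 CPM in the Retnla-high cells against 11.9 CPM in type 2 dendritic cells of WT SILT, and at 1110 against 21.5 CPM in WT lamina propria. Antigen presentation genes were lower for 5 of 7 in WT SILT and 4 of 7 in WT lamina propria. The gate asked the dendritic cells, and not the members, for H2-Aa, H2-Ab1 and H2-Eb1 at 5000 CPM or more. The part of this gate in the lower antigen presentation genes was not tested. H2-Oa, a modulator of peptide loading, was lowest among the named genes at 7.65 against 191 CPM and 3.85 against 150 CPM. Flt3, the growth factor receptor of dendritic cells, was at 1.91 CPM in WT SILT members and 1.92 CPM in WT lamina propria members.

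The Retnla-high cells were of more than 1 kind. Fn1 and the sum of Lyve1, Folr2 and Cd163 were nearly exclusive of each other from cell to cell, and thresholds of 1000 CPM for Fn1 and 500 CPM for the sum, chosen after these values were seen, split the WT members into 99 Fn1-high cells, 61 LYVE1-high cells, 10 cells high for both and 18 high for neither. In WT SILT 43 of 69 members (62.3%, 49.8 to 73.7) were Fn1-high and 19 (27.5%, 17.5 to 39.6) LYVE1-high. In WT lamina propria 56 of 119 (47.1%, 37.9 to 56.4) were Fn1-high and 42 (35.3%, 26.8 to 44.6) LYVE1-high. Across the members Fn1 ran with Lpl (Spearman 0.795 over 69 WT SILT cells and 0.856 over 119 WT lamina propria cells) and with Cd226 (0.716 and 0.810), and against Lyve1 (-0.794 and -0.755). These correlations describe cells that share a library and differ in depth. The working name fits the Fn1-high cells and not the LYVE1-high cells.

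**Figure D2:**
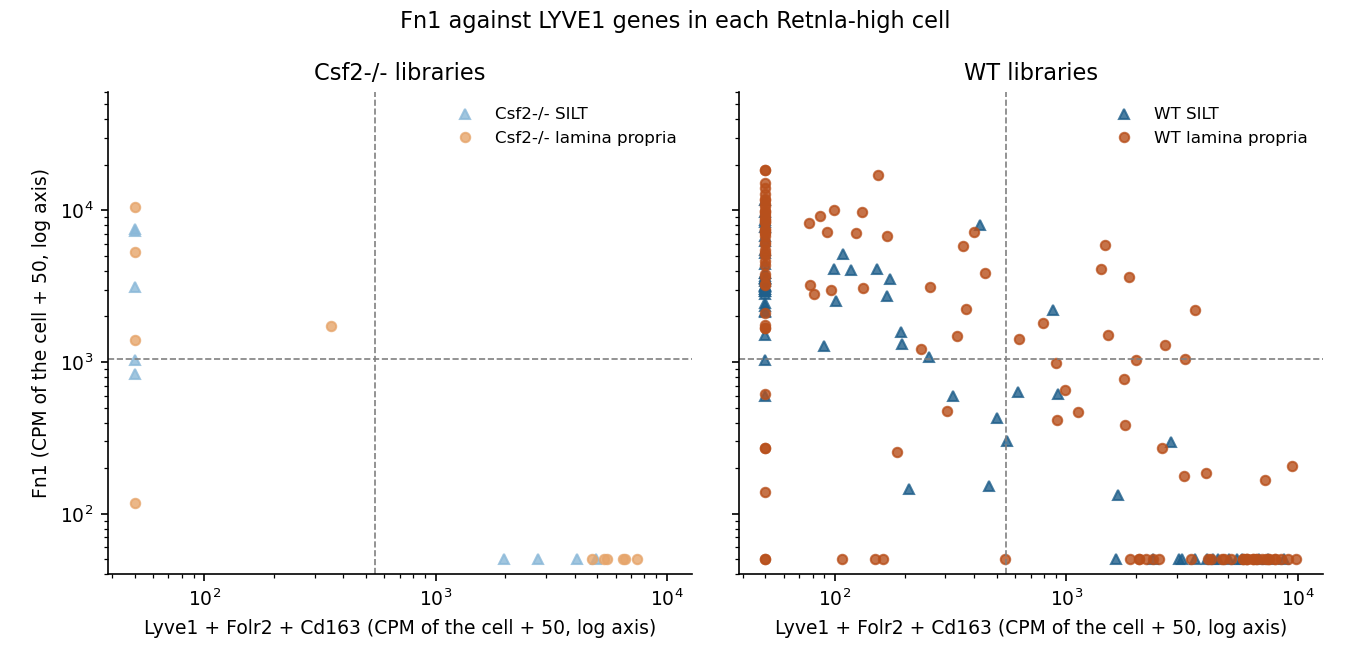
Each point is a Retnla-high cell of the Csf2-/- libraries or the WT libraries, placed by the sum of Lyve1, Folr2 and Cd163 and by Fn1 (CPM of the cell + 50, log axes), with dashed lines at the 500 and 1000 CPM thresholds. Of 188 WT members 99 lie in the Fn1-high field, 61 in the LYVE1-high field and 10 in the field high for both.

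The split also appeared when all cells were clustered without Retnla. Of 30 clusters, cluster 18, with 131 cells led by Lpl, Cd226, Lyz1 and Fn1, held 97 of the 208 members, 90 of them Fn1-high. Cluster 0, with 1725 cells led by Lyve1, Fcna, Cbr2 and Folr2, held 56 members, and all 56 were LYVE1-high. Cluster 17, with 132 cells, had Mucl1, Ms4a1, Mgl2, Bank1 and Cd79a among its leading genes. It held 19 members, 7 of them LYVE1-high, 7 high for both, 1 Fn1-high and 4 high for neither. Cluster 11, with 393 cells led by Jchain, Igkc and Iglv1, held 9 members, 5 of WT SILT and 4 of WT lamina propria. Retnla-high cells made up 74.0% of cluster 18, 14.4% of cluster 17 and 3.25% of cluster 0. The same genes formed the clusters and the kinds, so the match of clusters and kinds is a description.

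Between the kinds, Lpl, Aldh1a2, Lyz1, Cd226 and Ear2 were higher in the Fn1-high members, and many complement, scavenger and lysosome genes were higher in the LYVE1-high members. Of 3102 genes measured in both WT libraries, 147 (4.74%) were at least 2-fold higher in the Fn1-high members of both and 253 (8.16%) at least 2-fold lower. Lpl stood at 1777 CPM in Fn1-high members against 118 CPM in LYVE1-high members of WT SILT, and at 3317 against 79.3 CPM in WT lamina propria. Aldh1a2 stood at 134 against 7.35 CPM in WT SILT and at 154 against 8.44 CPM in WT lamina propria. Lyz1 stood at 3591 against 103 CPM in WT SILT and at 4090 against 307 CPM in WT lamina propria. Cd226 and Ear2 were likewise higher in both, with Cd226 at 198 against 18.4 CPM and 304 against 25.3 CPM. Ltb4r1 stood at 158 against 3.68 CPM in WT SILT and 170 against 6.75 CPM in WT lamina propria.

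CSF2 receptor and CSF1 receptor genes divided by kind. Csf2ra stood at 215 CPM in Fn1-high members against 58.8 CPM in LYVE1-high members of WT SILT, and at 451 against 115 CPM in WT lamina propria. Id2, a transcription regulator of dendritic and innate lymphoid cells, stood at 320 against 18.4 CPM and at 324 against 30.4 CPM. Of 10 measured genes of the CSF2 list 4 were at least 2-fold higher in both libraries (Csf2ra, Bhlhe40, Id2 and Batf3) and none lower. Of 11 genes of the CSF1 receptor axis list 6 were at least 2-fold lower in both (Csf1r, Maf, Irf8, Tgfbr1 and Tgfbr2 among them) and none higher. Csf1r stood at 243 against 974 CPM in WT SILT and at 381 against 1566 CPM in WT lamina propria.

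Monocyte, antigen presentation and protease genes were among the groups with more higher than lower genes in the Fn1-high members. Only 3 of the 14 genes of the monocyte list were measured (Ly6c2, Ccr2 and Ifitm6), and these 3 were at least 2-fold higher in both libraries. Their medians were 1.99 in WT SILT and 2.08 in WT lamina propria on the log2 scale. A gene low in both kinds was not measured, so these values do not describe the whole list. Of 9 measured antigen presentation genes 4 were at least 2-fold higher in both libraries (H2-DMa, H2-DMb1, H2-DMb2 and Cd74), with Cd74, the invariant chain, at 14023 CPM against 6176 CPM in WT SILT and at 12108 against 5316 CPM in WT lamina propria. Of 6 matrix protease genes Mmp12, Mmp19, Plaur and Adam8 were higher and Timp2, an inhibitor, lower. The lipid uptake and storage list was split, with 3 of 10 higher (Lpl, Fabp5 and Plin3) and 2 lower (Cd36 and Msr1), as was the matrix list, with 2 of 13 higher (Cd44 and Lgals3) and 2 lower (Itgb5 and F13a1). Mmp19 stood at 164 against 18.4 CPM in WT SILT and at 401 against 16.9 CPM in WT lamina propria. Both glycolysis genes that passed 2-fold, Pfkp and Eno1, were higher, of 10 measured.

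Genes of clearance were among those lower in the Fn1-high members. Of 13 measured scavenger and efferocytosis receptors 8 were at least 2-fold lower in both libraries, of 10 complement genes 7, and of 18 lysosomal enzymes 9, with none higher. Selenop, a selenium carrier, stood at 228 CPM in Fn1-high members against 4860 CPM in LYVE1-high members of WT SILT, and at 269 against 5601 CPM in WT lamina propria. Apoe stood at 1354 against 9230 CPM in WT SILT and at 851 against 8643 CPM in WT lamina propria. Ednrb, an endothelin receptor, stood at 18.0 against 963 CPM and at 6.39 against 1150 CPM. All 16 core macrophage genes were measured here and 10 were at least 2-fold lower in the Fn1-high members of both libraries, the 3 C1q genes, Csf1r and Adgre1 among them.

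**Figure D3:**
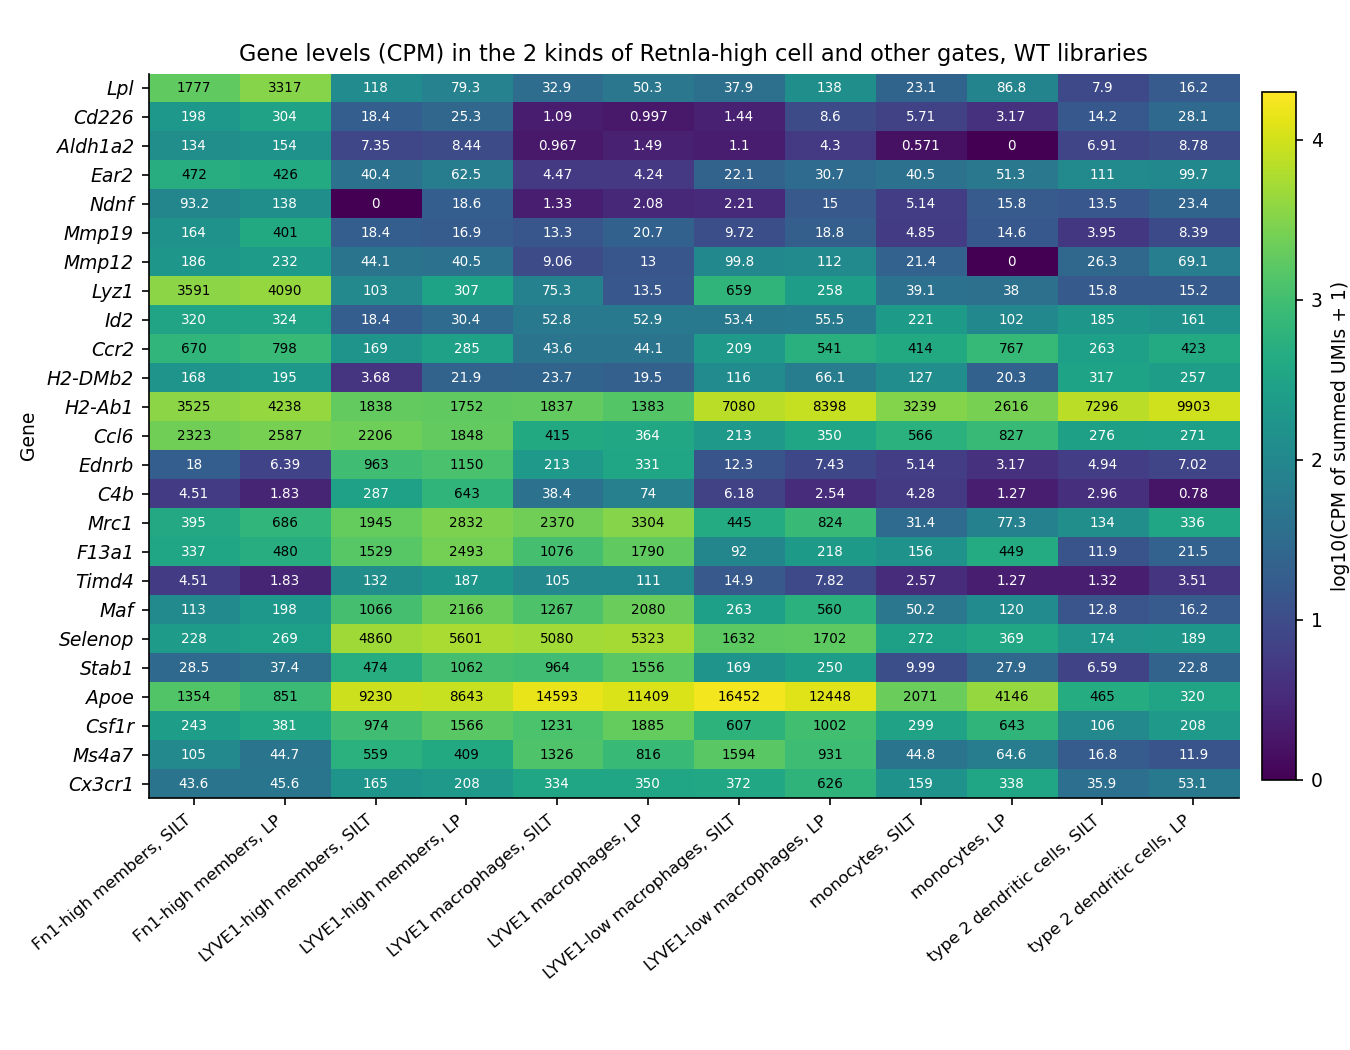
Levels of 25 genes (numbers, CPM of summed UMIs; colour, log10 of CPM + 1) in the Fn1-high and LYVE1-high members and in 4 other sets of cells of the WT SILT and WT lamina propria (LP) libraries. Lpl is at 1777 and 3317 CPM in the Fn1-high members and at most 138 CPM in the other sets, while Selenop is at 4860 and 5601 CPM in the LYVE1-high members and at 5080 and 5323 CPM in LYVE1 macrophages.

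The LYVE1-high members were close to the LYVE1 macrophages without Retnla. Of 3045 genes measured in both WT libraries, 17 (0.558%) were at least 2-fold higher in the LYVE1-high members of both, Retnla included, and 11 (0.361%) at least 2-fold lower. None of 13 measured core macrophage genes and none of 18 lysosomal enzymes passed 2-fold in both. Selenop stood at 4860 CPM in LYVE1-high members against 5080 CPM in LYVE1 macrophages of WT SILT and at 5601 against 5323 CPM in WT lamina propria. Csf2ra stood at 58.8 against 62.0 CPM and at 115 against 87.0 CPM. Only 19 WT SILT and 42 WT lamina propria cells make up the LYVE1-high members, and the count of lower genes moved between 4 and 105 with the filter and the definition of the sets.

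The genes that did differ came from several lists, 1 of 7 measured complement genes (C4b), 2 higher and 1 lower of 7 CC chemokines, and 2 of 5 cell cycle genes (Mki67 and Top2a). C4b, a complement component, stood at 287 CPM in LYVE1-high members against 38.4 CPM in LYVE1 macrophages of WT SILT, and at 643 against 74.0 CPM in WT lamina propria. Ccl6 stood at 2206 against 415 CPM in WT SILT and at 1848 against 364 CPM in WT lamina propria, close to its 2323 and 2587 CPM in the Fn1-high members. Ednrb stood at 963 against 213 CPM and at 1150 against 331 CPM. Ccr2 stood at 169 against 43.6 CPM in WT SILT and at 285 against 44.1 CPM in WT lamina propria. Mki67, a proliferation marker, stood at 187 against 49.7 CPM and at 199 against 31.1 CPM, and Top2a was higher with it. Cd4, Vcam1, Siglech and Nxpe5 were lower, with Cd4 at 14.7 against 68.6 CPM in WT SILT and 13.5 against 66.6 CPM in WT lamina propria.

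With both WT libraries summed and cells ordered by Retnla, Lpl and Ear2 were higher at each step up in Retnla, and Lyve1 was not. The steps mix the kinds of member, whose Retnla differed. Its median was 10186 CPM in Fn1-high against 5647 CPM in LYVE1-high members of WT SILT, and 13167 against 6142 CPM in WT lamina propria. Whether Lpl or Ear2 rose with Retnla within a kind was not tested. The single libraries had exceptions. In WT SILT Lpl stood at 20.8 CPM in cells with some Retnla under 500 CPM, against 25.9 CPM in cells with none, and Ear2 there at 12.3 against 15.5 CPM. In WT lamina propria Ear2 stood at 170 CPM in the second highest step, against 215 CPM in the step below it. From the 20 cells at 1000 to 2000 CPM of Retnla through the 40 cells up to 5000 CPM and the 38 cells of the next step to the 90 cells with most Retnla, Lpl stood at 565, 1079, 1530 and 2348 CPM. In the summed cells with some Retnla but under 500 CPM it stood at 76.3 CPM, and Ear2 there at 18.8 CPM against 423 CPM in the 90 cells. Lyve1 stood at 1512 CPM in the cells at 1000 to 2000 CPM of Retnla and at 658, 891 and 423 CPM in the steps above. The 10 cells at 500 to 1000 CPM and the 20 just above the threshold give thin steps. Fn1 stood at 869 CPM in the first of these and 508 CPM in the second.

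**Figure D4:**
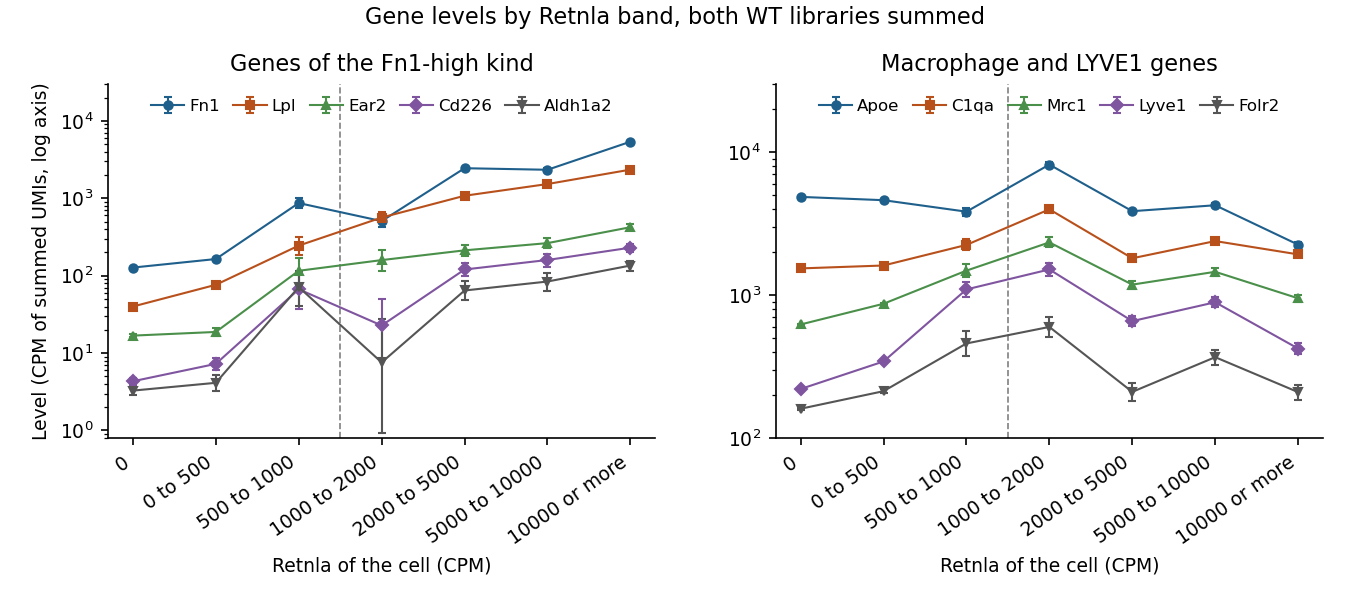
Levels (CPM of summed UMIs, log axis) in passing cells of both WT libraries, grouped by the Retnla level of the cell, with 95% counting intervals and the 1000 CPM threshold as a dashed line. On the left, Lpl reaches 2348 CPM in the cells with most Retnla, and on the right Lyve1 peaks at 1512 CPM just above the threshold.

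By tissue, Retnla-high cells were a smaller share of cells in WT SILT than in WT lamina propria. They made up 69 of 5498 WT SILT cells (1.26%, 0.978 to 1.59) and 119 of 3663 WT lamina propria cells (3.25%, 2.70 to 3.88), a ratio of 0.386 (0.283 to 0.524). Over the Retnla-high cells and other C1q macrophages alone the ratio was 0.515 (0.377 to 0.698). Both kinds followed, the Fn1-high members at a ratio of 0.512 (0.336 to 0.775) and the LYVE1-high members at 0.301 (0.166 to 0.530). Each tissue is 1 library, so tissue and library cannot be told apart.

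The genes that differed between WT SILT and WT lamina propria members were few and many came from a handful of cells. Of 3433 genes 91 (2.65%) were at least 2-fold higher in SILT members and 89 (2.59%) at least 2-fold lower. Among the other C1q macrophages 2.63% were higher in SILT and 4.08% lower. With TMM scaling the counts were 175 and 30, since that scaling moved all log2 ratios by 0.189, and with median-of-ratios scaling 160 and 28. The 8 highest ratios went to Adamdec1, Col1a1, Ogn, Col1a2, Tm4sf1, Postn, Pclaf and Col3a1, mostly genes of fibroblasts and vessels. Adamdec1 stood at 133 CPM in SILT members against 2.40 CPM in lamina propria members, but 103 of its 139 SILT UMIs lay in 1 cell. Fibroblast marker genes summed to 534 CPM in WT SILT members and 49.5 CPM in WT lamina propria members. At least 1000 CPM of B cell, endothelial, fibroblast, T cell or epithelial genes lay in 7 SILT and 3 lamina propria members. Without those members 49 genes were higher in SILT. Plasma cell genes were not part of this check. The 8 lowest ratios included Neat1, a nuclear RNA, at 262 CPM in SILT members against 715 CPM in lamina propria members, and Nfatc2, a calcium-regulated transcription factor, at 22.9 against 68.8 CPM. Both also ran lower in SILT among the other C1q macrophages, Neat1 at 180 against 625 CPM and Nfatc2 at 28.5 against 75.2 CPM.

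By genotype, Retnla-high cells were a smaller share of cells in the Csf2-/- libraries. In SILT they made up 9 of 1829 Csf2-/- cells (0.492%, 0.225 to 0.932) against 69 of 5498 WT cells (1.26%), a ratio of 0.392 (0.172 to 0.788). In the lamina propria they made up 11 of 1686 Csf2-/- cells (0.652%, 0.326 to 1.16) against 119 of 3663 WT cells (3.25%), a ratio of 0.201 (0.0976 to 0.373). The ratio stayed under 1 when other cells were the base, at 0.341 in SILT and 0.269 in the lamina propria over Retnla-high cells and other C1q macrophages. Among cells of at least 5000 UMIs the Csf2-/- SILT share was 0.199% and the SILT ratio 0.143, so the SILT value depended on the UMI cutoff. The Csf2-/- SILT members had a median of 4662 UMIs, against 9124 in all passing cells of that library. Genotype and library cannot be told apart, and the CD11b selection of each library sets the base of these shares.

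**Figure D5:**
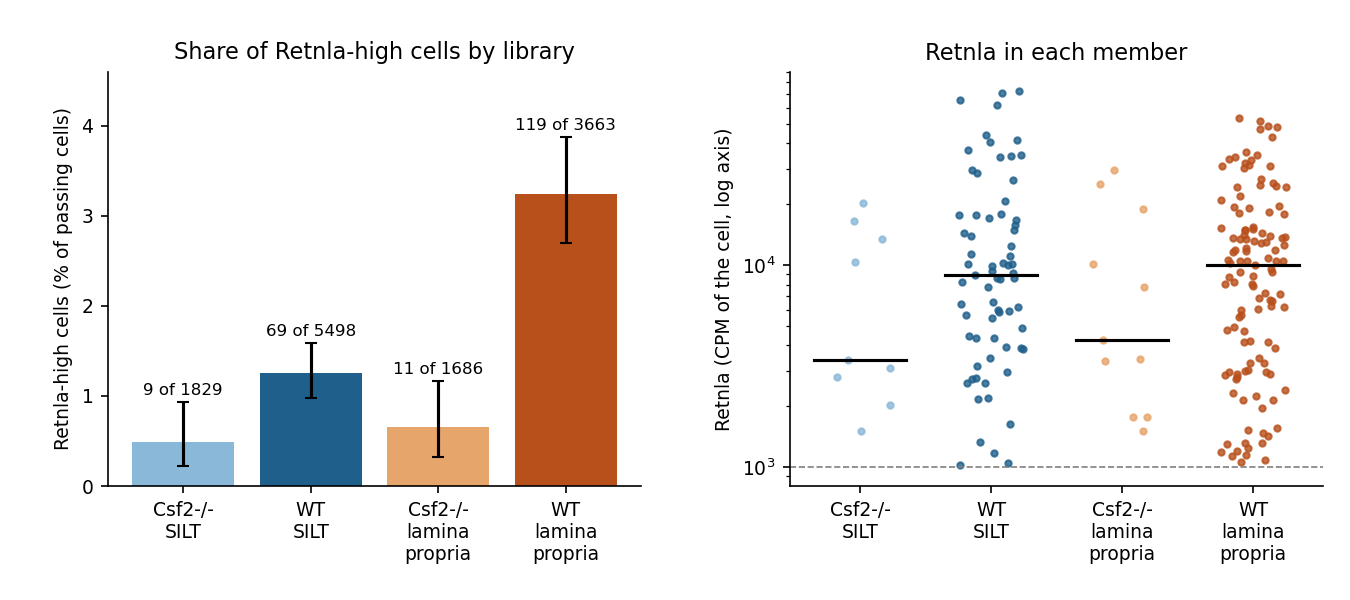
On the left, the share of passing cells that were Retnla-high in each library (%), with 95% binomial intervals and the counts above each bar. On the right, the Retnla level of each member (CPM of the cell, log axis) with the median as a line at 3409, 8883, 4238 and 9976 CPM and the 1000 CPM threshold dashed.

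The Fn1-high members had the lower ratio of Csf2-/- to WT in each tissue, with wide intervals. Over both tissues they were 7 of 3515 Csf2-/- cells against 99 of 9161 WT cells, a ratio of 0.184 (0.0722 to 0.394). The LYVE1-high members were 10 of 3515 against 61 of 9161 cells, a ratio of 0.427 (0.195 to 0.840). In SILT the ratios were 0.210 (0.0416 to 0.655) for Fn1-high and 0.633 (0.157 to 1.90) for LYVE1-high members, and in the lamina propria 0.155 (0.0409 to 0.420) and 0.310 (0.108 to 0.734). The intervals of the kinds overlap, and the difference between them was not tested.

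Cells with Fn1 and Lpl were present in the Csf2-/- libraries, and few of them reached 1000 CPM of Retnla. Cells with at least 1000 CPM of Fn1, at least 500 CPM of Lpl and at least 1000 CPM of Fcer1g and Tyrobp together, whatever their Retnla, numbered 5 (0.273%) in Csf2-/- SILT against 36 (0.655%) in WT SILT, and 9 (0.534%) in Csf2-/- lamina propria against 67 (1.83%) in WT lamina propria. Of these, 1 of 5 Csf2-/- SILT cells and 31 of 36 WT SILT cells were Retnla-high. In the lamina propria it was 2 of 9 Csf2-/- cells and 49 of 67 WT cells. No Retnla UMI at all was found in 3 of 5 Csf2-/- SILT cells against 5 of 36 WT SILT cells, and in 4 of 9 Csf2-/- lamina propria cells against 13 of 67 WT lamina propria cells. Whatever their Retnla, the Fn1 and Lpl cells gave a Csf2-/- to WT ratio of 0.4175 (0.128 to 1.07) in SILT. In the lamina propria that ratio was 0.292 (0.128 to 0.588). The part of them without Retnla at 1000 CPM gave 2.40 (0.477 to 11.2) in SILT, from 4 against 5 cells. In the lamina propria this part gave 0.845 (0.298 to 2.12), from 7 against 18 cells. Such wide intervals cannot show whether the share of this part was lower or unchanged. Among cells with Lyve1, Folr2 and Cd163 at 500 CPM or more, Retnla-high cells made up 1.63% in Csf2-/- SILT against 2.64% in WT SILT, and 2.80% in Csf2-/- lamina propria against 5.53% in WT lamina propria, with overlapping intervals in SILT (0.447 to 4.13 and 1.62 to 4.05) and in the lamina propria (1.04 to 6.0 and 4.14 to 7.20).

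The 20 Csf2-/- members gave only a coarse profile. Fn1 summed to 1775 CPM in them against 3519 CPM in the 188 WT members, 0.504-fold (0.443 to 0.572). Cd226 stood at 71.6 against 168 CPM, and Lpl at 1303 against 1680 CPM. Lpl differed by tissue, at 1753 CPM in Csf2-/- against 1189 CPM in WT SILT members and at 1017 against 1927 CPM in lamina propria members. Aldh1a2 had no UMI in the members of either Csf2-/- library. Its 94.4 CPM in WT members was 4.4-fold above a floor of 3 UMIs over the 20 cells (21.5 CPM), which is no lower bound. The counting interval of its Csf2-/- to WT ratio reached 0.2815 over both tissues, 0.733 in SILT and 0.462 in the lamina propria. Lyve1 stood at 1238 CPM in Csf2-/- members against 682 CPM in WT members. The receptor genes Csf2ra (293 against 259 CPM) and Csf2rb (122 against 118 CPM) differed little, at 1.13-fold (0.807 to 1.55) and 1.03-fold (0.592 to 1.67). The UMIs of a gene gather in few cells, so these counting intervals are too narrow, and the mix of kinds (7 of 20 Fn1-high in Csf2-/- and 99 of 188 in WT members) moves with the same genes. Its part in these differences was not tested.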

How the data were processed

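Counts of UMIs per gene and barcode were used as deposited, with no normalization, for 32285 features in 4 libraries. The matrix headers name Cell Ranger 6.0.0, while the submitters' processing notes name Cell Ranger 2.1.1 and mm10; which made the deposited counts could not be settled. Per the labels' protocols, CD11b+ cells were selected before droplet 3' sequencing. The selection was an enrichment: 1836 of 5498 passing WT SILT cells and 1265 of 3663 passing WT lamina propria cells were gated as endothelial. The features Clec7a, Clec6a and Mx1 of the gene lists were not analysed here, and some listed genes are not reported here.

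Members and the 45 gene lists were chosen with earlier results of these data known, and the Fn1 and LYVE1 thresholds after the values were seen. Members had Retnla at 1000 CPM or more. All other sets had Retnla under that level. C1q macrophages had C1qa, C1qb and C1qc at 2000 CPM or more together; LYVE1 macrophages among them had Lyve1, Folr2 and Cd163 at 500 CPM or more. Monocytes (Ly6c2, Chil3, Hp, Plac8 and Ms4a4c at 1000 CPM or more, and Fcer1g and Tyrobp likewise), type 2 dendritic cells (Flt3, Cd209a, Clec10a and Kmo at 500 CPM and H2-Aa, H2-Ab1 and H2-Eb1 at 5000 CPM or more) and endothelial cells (Pecam1, Cdh5, Egfl7 and Plvap at 2000 CPM or more) were gated among cells below the C1q level. Gate genes and Retnla are not results.

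UMIs were summed per library and set and expressed as CPM, and ratios had no pseudocount. A gene was measured when it had at least 50 CPM in 1 of the 2 sets and 30 UMIs over both, and 2-fold was the mark. Named genes were the 15 highest and 12 lowest against C1q macrophages by the smaller log2 ratio of both WT libraries, 6 each way against monocytes and dendritic cells, 8 each way between tissues, and list members, leaving out genes of antigen receptors, haemoglobin, ribosomes and mitochondria, Xist and Y-linked genes, and unnamed ones. Intervals (95%, exact Poisson, Clopper-Pearson and conditional binomial) cover counting error only. With 1 library per group there is no replicate test and no p-value. Detection shares used cells thinned to 3000 UMIs (seed 1), which left out no cell. Doublets called by Scrublet were kept: 3 of the 208 members, and 0.415% to 1.60% of passing cells per library. The caller marked under 0.5% in both Csf2-/- libraries. Clustering without Retnla used 2000 variable genes, 30 components, 15 neighbours and Leiden resolution 1. The ratio code was tested on simulated data. Python 3.11.15, numpy 2.4.6, scipy 1.17.1, pandas 2.3.3, scanpy 1.11.5, leidenalg 0.10.2 and, for TMM factors, edgeR 4.0.16 in R 4.3.3 were used. Alternatives changed the filters, the scaling, the thresholds and the comparison cells.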

Additional observations from a re-analysis of the deposited data

Results flagged for a closer look

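Against the other C1q macrophages, 2 genes passed the 2-fold mark in opposite directions in the WT libraries. Rgs5, a gene of pericytes, had a ratio of 2.06 in WT SILT and 0.366 in WT lamina propria. Iglc2, an immunoglobulin light chain gene of plasma cells, had a ratio of 0.419 in WT SILT and 3.56 in WT lamina propria. The difference between the libraries was not tested for either gene. Both are markers of other cell types, and their part in the ratios was not tested.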

How the results depend on the processing

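No paired analysis was possible because each group is 1 library, and for the same reason no replicate could be left out. Of 591 values of named genes under the alternatives, 586 stayed past 2-fold, 5 did not, and 90 moved by over 1.5 times. Of 344 other values 53 moved. With LYVE1-low macrophages alone as the comparison, Siglech in WT lamina propria turned to a log2 ratio of 0.24, against -2.12 with all C1q macrophages. Of the shares, only that of Csf2-/- SILT moved, to 0.199% with at least 5000 UMIs per cell, and with it the SILT ratio to 0.143. Counts of genes are given higher first, then lower. Without a filter on low values, members against other C1q macrophages gave 1736 and 1144 in WT SILT, 1414 and 1436 in WT lamina propria and 509 and 450 in both, against monocytes 1001 and 441, against type 2 dendritic cells 1027 and 464, Fn1-high against LYVE1-high members 329 and 824, LYVE1-high members against LYVE1 macrophages 247 and 105, and SILT against lamina propria members 1109 and 1240. With a 100 CPM filter they gave 92 and 113, 95 and 83, 65 and 57 against C1q macrophages in the same order, 132 and 98 against monocytes, 155 and 65 against dendritic cells, 95 higher between the kinds, 4 lower for LYVE1-high members, and 41 and 36 between tissues. Between tissues, TMM gave 175 and 30, median-of-ratios scaling 160 and 28, the mean of per-cell CPM 56 and 151, thinning 237 lower, and leaving out members with another lineage's genes 49 higher. Against LYVE1-low macrophages alone 256 genes were higher in WT SILT; against LYVE1 macrophages alone 226 were lower in WT lamina propria and 162 in both. Without mitochondrial and ribosomal genes 180 were lower against dendritic cells. Thinning gave 70 and 71 between the kinds and 36 and 44 for LYVE1-high members against LYVE1 macrophages. For that last comparison the lower genes numbered 22 with Retnla at 2000 CPM, 18 without other-lineage members, 24 with Fn1 at 500 CPM, 17 with the LYVE1 sum at 1000 CPM and 17 by per-cell means. The cause of these moves was not tested. Depth limits the Csf2-/- members most, with 54193 UMIs over the 9 SILT cells and 85520 over the 11 lamina propria cells.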
